A study of Mus musculus with 6 samples.

Results

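The genes described are 10 immediate-early factors, taken by symbol from the deposited count table, which lists 55453 genes. They are the JUN genes *Jun*, *Junb* and *Jund*, the FOS genes *Fos*, *Fosb* and *Fosl2*, the zinc finger genes *Egr1* and *Egr2*, the bZIP repressor gene *Atf3*, and *Ier3*, which is induced with them but encodes a survival protein rather than a transcription factor. All 10 were found, and all 10 passed the filter on low counts that kept 13680 genes for testing. Their levels were compared between bone marrow-derived macrophages (BMDM) of LysMcre PP2Ac fl/fl mice (PP2Ac KO, 3 libraries) and of WT mice (PP2Ac WT, 3 libraries), all on C57BL/6. In PP2Ac KO cells *cre*, driven by the lysozyme 2 promoter of myeloid cells, removes exon 1 of *Ppp2ca*, the gene of a catalytic subunit of protein phosphatase 2A. The WT mice came from another supplier than the PP2Ac KO mice, and no *cre* is described in them. Loss of PP2Ac, presence of *cre* and source of the mice therefore cannot be told apart. Mice in the study were 6 to 10 weeks old and of both sexes. BMDM were grown from marrow with M-CSF or medium from L929 fibroblasts. Both groups were taken as treated with 10 μg/mL of the STING agonist cGAMP for 4 hours, because that is the RNA-Seq experiment described for these genotypes. The labels give no treatment, and no library labelled untreated was analysed here, so the values compare genotypes and do not measure induction. Nothing in the labels says that the libraries came from separate mice, and p-values measure the spread between these libraries only.

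Immediate-early genes are transcribed within minutes of a stimulus from factors that the cell already holds, without new protein synthesis, and their RNAs are short-lived. JUN and FOS proteins pair through leucine zippers as AP-1, which binds DNA as JUN-JUN or JUN-FOS dimers, whereas FOS proteins do not pair with each other. JUNB and JUND are often weaker activators than JUN, EGR1 and EGR2 bind GC-rich sites through zinc fingers, and ATF3 restrains many inflammatory genes in macrophages. Mitogen-activated protein kinases drive the expression and activity of these factors, and protein phosphatase 2A can remove phosphates from several steps of that cascade.

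*Ppp2ca* itself had 33 to 47 counts per PP2Ac KO library and 8279 to 10654 per PP2Ac WT library, a difference in the direction the labels call for. Library totals ran from 35257156 to 47390899 counts. The macrophage markers *Adgre1*, *Cd68* and *Csf1r* were at 1250, 1310 and 3011 mean CPM in PP2Ac WT, and the 7 macrophage markers listed summed to between 6170 and 6801 CPM in PP2Ac WT and between 7294 and 7483 in PP2Ac KO. Among these 7, *Fcgr1* (log2 0.70) and *Mertk* (0.27) were called higher and 0 lower in edgeR, beside 18.1% and 19.0% of all genes. The 0 lower held at an unadjusted p under 0.05 and with DESeq2 and limma-voom. With the replicate block *Csf1r* and *Lyz2*, whose promoter drives *cre*, were also called higher (edgeR FDR = 0.0028 and 0.0118). That fit had 1 of the 7 lower at an unadjusted p under 0.05. Library totals alone called 1 higher and 1 lower. Of 6 fibroblast markers, 5 were lower in PP2Ac KO, led by *Col1a1* (log2 -2.10), *Col1a2* (-2.05) and *Col3a1* (-1.95), or all 6 with the replicate block, and their summed level was 24.8 to 36.2 CPM there against 79.5 to 124 CPM in PP2Ac WT. None of the 6 was at 0. *Cd8a* and *Ly6g* had 0 counts in every library, which allows up to 0.0604 to 0.0909 CPM (3 counts, counting error only), and the lists of T, NK and B cells, of neutrophils and progenitors, and of dendritic and mast cells each summed to at most 1.37 CPM. In bulk RNA, fewer cells of a type and less RNA per cell cannot be told apart.

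The genes are short. In GENCODE M21 on GRCm38 (mm10) they span 1240 bp (*Ier3*) to 47744 bp (*Atf3*), 8 of them 7356 bp or less, against a median of 24201 bp over 12010 protein-coding genes tested. *Jun* (chr4:95049034-95052222, reverse strand), *Junb* (chr8:84974484-84978718, reverse) and *Jund* (chr8:70698949-70700616, forward) have coding transcripts of 1 exon, as do 2.56% of the tested coding genes. *Fos* (chr12:85473890-85477273, forward) has 4 exons and *Ier3* (chr17:35821684-35822923, forward) 2. The AU-rich nonamer TTATTTATT, an element of unstable RNAs, stood in the 3′ UTR of *Fos* and *Fosl2*, and in 8.16% of the 11951 tested coding genes with a 3′ UTR. The other 8 members lacked it in the UTR of their longest annotated form. Each of these 8 held 1 to 5 copies of the shorter ATTTA, which was not counted over all tested genes. The files do not state a strand setting, and in the annotation *Jun* overlaps *Junos*, *Junb* overlaps *Prdx2*, *Jund* overlaps *Gm11175* and *Atf3* overlaps *Gm24748*, each on the opposite strand. *Prdx2*, the most abundant of these, had 131 CPM in PP2Ac KO against 123 in PP2Ac WT, a log2 difference of 0.10 with an SE of 0.07 (edgeR FDR = 0.291, the Benjamini-Hochberg adjusted p), *Junos* and *Gm11175* were under 2 CPM, and *Gm24748* had 0 counts.

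The 250 bases before the start sites of *Fos*, *Junb* and *Ier3*, the members with the largest fold changes, are shown from RefSeq on GRCm38.p6. Capitals mark matches to a κB site, the motif of NF-κB, or to the TATA box (TATAAA).
Fos, chr12:85473640-85473889, forward: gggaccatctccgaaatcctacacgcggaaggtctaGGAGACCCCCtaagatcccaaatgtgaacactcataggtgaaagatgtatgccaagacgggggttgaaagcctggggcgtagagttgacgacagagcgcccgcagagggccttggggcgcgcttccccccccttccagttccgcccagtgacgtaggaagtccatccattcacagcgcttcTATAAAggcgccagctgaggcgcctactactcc
Junb, chr8:84978749-84978998, reverse: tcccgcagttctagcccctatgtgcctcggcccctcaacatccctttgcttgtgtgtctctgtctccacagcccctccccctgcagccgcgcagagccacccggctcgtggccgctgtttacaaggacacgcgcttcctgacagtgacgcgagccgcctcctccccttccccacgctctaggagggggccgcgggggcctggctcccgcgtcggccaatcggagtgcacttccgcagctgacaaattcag
Ier3, chr17:35821463-35821712, forward: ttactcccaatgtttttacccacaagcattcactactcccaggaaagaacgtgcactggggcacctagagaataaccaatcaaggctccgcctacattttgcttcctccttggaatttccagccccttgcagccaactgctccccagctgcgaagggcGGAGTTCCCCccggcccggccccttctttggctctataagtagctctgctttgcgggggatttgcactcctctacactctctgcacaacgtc
Of the 8 motifs searched on both strands (the TATA box, TGACTCA for AP-1, TGACGTCA for the cAMP response element or CRE, GCGTGGGCG for EGR, CCGGAAG for ETS factors and, by name, the interferon response element, κB site and CArG box), *Fos* matched a κB site 214 bases and the TATA box 33 bases before its start, and *Ier3* a κB site 92 bases before it. *Junb*, whose RNA differed most, held none of them in this window. κB sites also stood before *Fosb* and *Fosl2*, so that 4 of the 9 members with a promoter in the table had one. Of these 4 members, 2 rose and 2 were not called. Of all 32851 promoters 3.90% had a κB site. Such shares count promoters, whereas a member counts once over all its start sites. A TATA box stood before 12.4% of all promoters. The interferon response element stood before *Fosl2* alone of the 9, and before 2.98% of all. A CArG box, the site of serum response factor, stood before 4 of the 5 start sites of *Egr2* and before 1.47% of all promoters. These 4 matches are 2 distinct boxes, since 3 of the start sites lie close together and share 1. No AP-1, CRE, EGR or ETS match stood in any window of the 9, and these stood before 4.46, 1.55, 0.536 and 6.91% of all promoters. The *Jund* window lies before a RefSeq start at chr8:70697739, upstream of the GENCODE start at 70698949. The bases just before that GENCODE start were therefore not searched. The RefSeq start of *Atf3*, chr1:191183333 on the reverse strand, lies inside the GENCODE span that ends at 191218039. *Egr1* was the member without a promoter sequence, so no motif could be sought there. Sites outside the 250 bases were not searched for any gene. For AP-1, CRE, EGR and ETS only the exact letters given above were sought. Sequences differing from them by a base were not counted, so a missing match does not show that such a site is absent.

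To ask how loss of PP2Ac bears on these factors, each gene was tested in a fit over all genes. Of the 10, 6 were higher in PP2Ac KO at an FDR under 0.05 in edgeR's quasi-likelihood fit (*Junb*, *Ier3*, *Fos*, *Egr1*, *Jun* and *Atf3*), where 18.1% of all genes tested were higher. None was lower, where 19.0% of all genes were, although *Egr2* had an unadjusted p under 0.05 and DESeq2 and limma-voom also called 0 members lower. The shares over all genes were not matched for abundance. By mean CPM the members ranked from percentile 24.4 (*Egr2*) to 97.7 (*Fos*) of the genes tested. The median log2 difference of the 10 was 0.37, against -0.02 over all genes. Past 2-fold at an FDR under 0.01 only *Junb* was higher, as were 3.36% of all genes, and 0 members were lower, as were 2.99%. In 6 members all PP2Ac KO libraries lay above all PP2Ac WT libraries (24.0% of all genes), and in *Egr2* all lay below (26.8%), so that 7 of the 10 did not overlap where 50.9% of all genes did not.

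**Figure D1:**
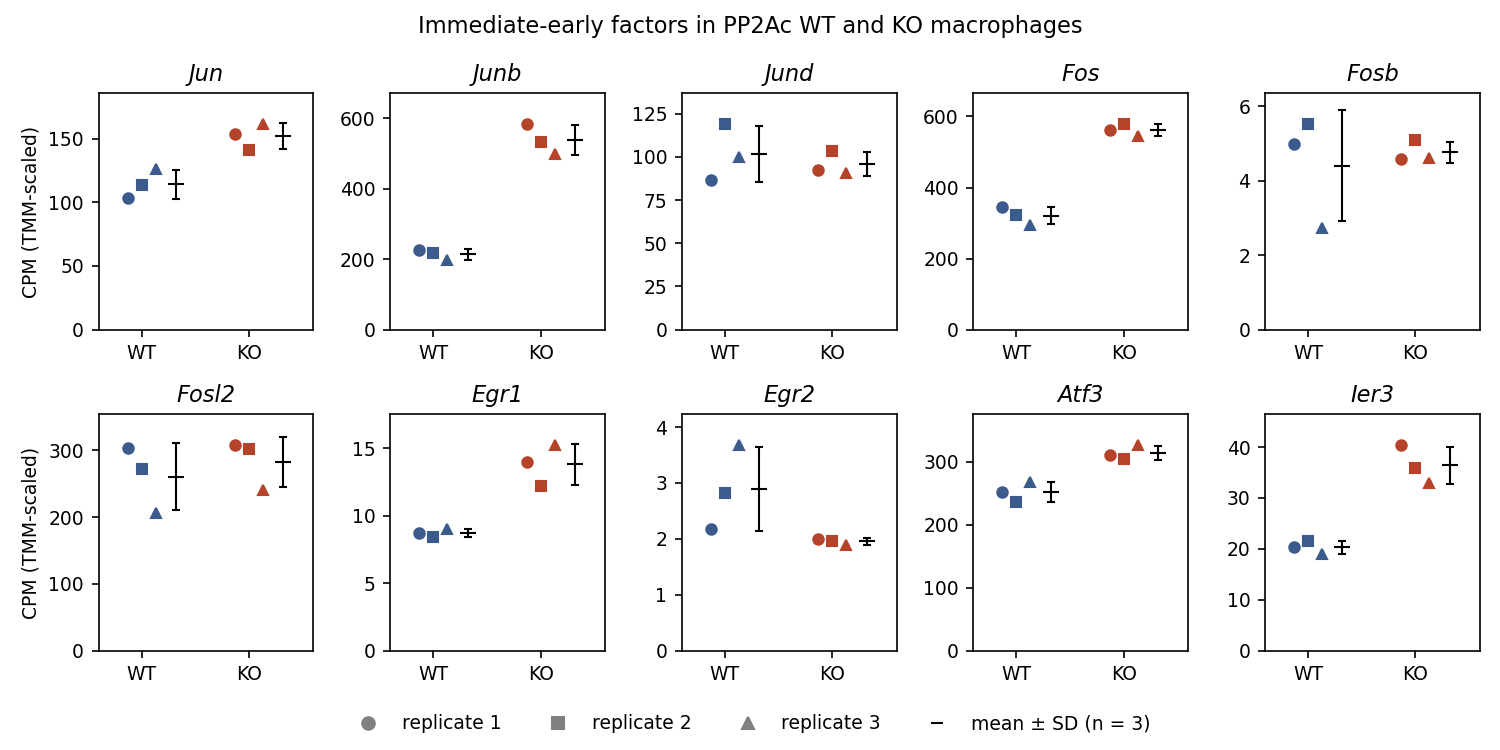
TMM-scaled CPM of each gene (y axis, from 0) in the 3 PP2Ac WT (blue) and 3 PP2Ac KO (red) libraries, with marker shapes for replicate numbers and mean ± SD (n = 3) in black. *Junb*, *Fos*, *Ier3*, *Egr1*, *Jun* and *Atf3* lie higher in every PP2Ac KO library, *Egr2* lower, and *Jund*, *Fosb* and *Fosl2* overlap.

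Among the JUN genes, *Junb* had the largest difference. Its level was 583, 534 and 500.2 CPM (library-size-scaled counts, with TMM factors) in PP2Ac KO libraries 1, 2 and 3 and 227, 218 and 197 CPM in PP2Ac WT libraries 1, 2 and 3. Every PP2Ac KO library was far above every PP2Ac WT library. The means were 539 ± 41.8 and 214 ± 15.3 CPM (SD, n = 3), a 2.52-fold increase (log2 1.34, SE 0.08, edgeR FDR = 3.9e-05). *Jun*, the gene of the strongest activator among them, was at 154, 141 and 161 CPM in PP2Ac KO against 103, 113 and 126 in PP2Ac WT. The groups did not overlap, but were separated by less than the range within either. It rose 1.33-fold (log2 0.41, SE 0.09, edgeR FDR = 0.00517). *Jund*, which many cells express without a stimulus, was at 92.6, 104 and 91.0 CPM in PP2Ac KO against 86.5, 119 and 100.2 in PP2Ac WT. These groups overlapped, with a log2 difference of -0.09 (95% interval -0.34 to 0.16, edgeR FDR = 0.558), an interval of 0.791-fold to 1.12-fold. Without PP2Ac WT replicate 2, the highest library, the value was 0.04.

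The makeup of JUN RNA differed with these unequal changes. Per kilobase of exon (RPKM from union exon length), *Junb* made up 71.0, 68.6 and 67.4% of summed JUN RNA in PP2Ac KO libraries and 53.9, 47.0 and 46.2% in PP2Ac WT libraries. *Jund* had a share of 32.1% ± 3.51 in PP2Ac WT and 16.9% ± 1.41 in PP2Ac KO (SD, n = 3), and *Jun* was 18.9% ± 2.12 in PP2Ac WT and 14.1% ± 1.41 in PP2Ac KO. Neither share overlapped between genotypes. With coding transcript lengths the mean *Junb* share was 73.9% in PP2Ac KO and 55.0% in PP2Ac WT. By union exon length, the summed level was 190 ± 10.2 RPKM in PP2Ac WT and 339 ± 17.4 RPKM in PP2Ac KO. Ratios within a library need no scaling. The ratio of *Junb* to *Jun* counts was 3.79, 3.79 and 3.10 in PP2Ac KO and 2.20, 1.92 and 1.56 in PP2Ac WT, a difference of 0.92 in mean log2 ratio, and that of *Junb* to *Jund* was 6.30, 5.15 and 5.50 against 2.62, 1.83 and 1.96, a difference of 1.41. Each of the 7 ratios computed between members had a 2-sided exact permutation p = 0.1 (0.1 after adjustment over the 7), which is the smallest that 3 libraries against 3 allow. All 7 set a member with a larger log2 difference over one with a smaller, so they are not independent of the single-gene differences.

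**Figure D2:**
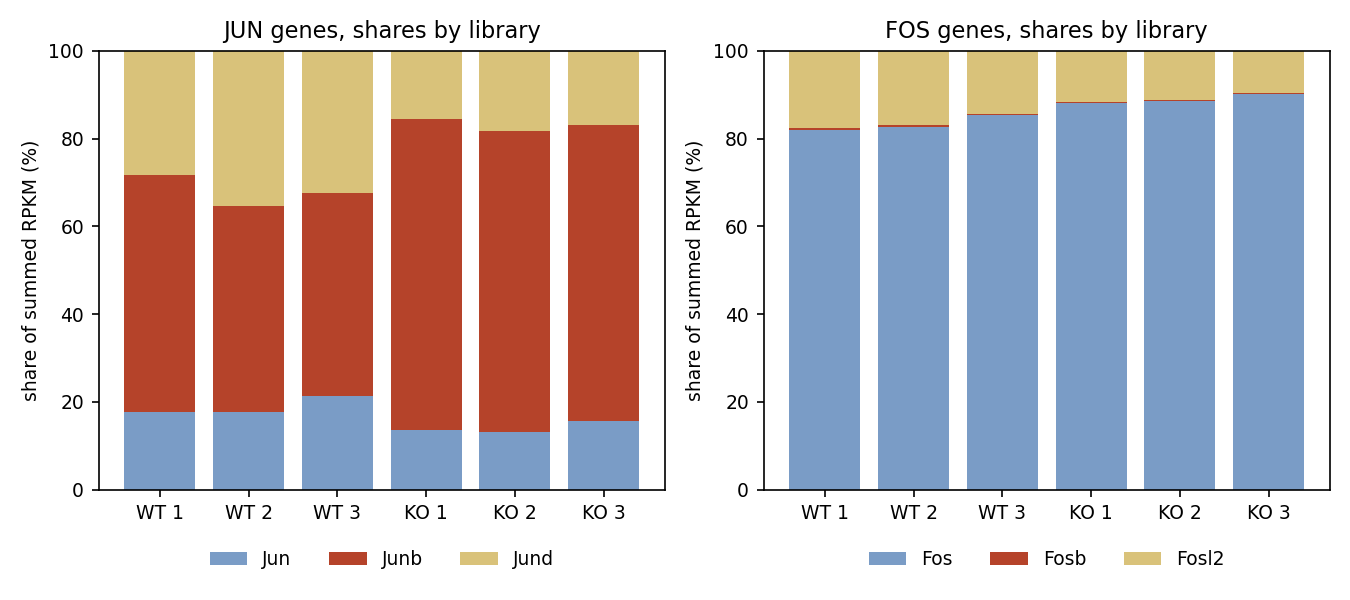
Share (%) of the summed RPKM of the 3 JUN genes (left) and the 3 FOS genes (right) taken by each gene, 1 bar per library. *Junb* takes 46.2 to 53.9% of JUN RNA in PP2Ac WT and 67.4 to 71.0% in PP2Ac KO, and *Fos* 82.0 to 85.3% and 88.0 to 90.1% of FOS RNA.

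Of the FOS genes, *Fos* was at 562, 578 and 545 CPM in PP2Ac KO against 345, 323 and 296 in PP2Ac WT. The libraries of the genotypes were well apart, and the mean rose from 321 ± 24.5 to 562 ± 16.5 CPM (SD, n = 3), 1.75-fold (log2 0.81, SE 0.07, edgeR FDR = 1.08e-04). *Fosl2*, which encodes FRA-2, had 308, 302 and 240.1 CPM in PP2Ac KO against 304, 273 and 206 in PP2Ac WT. In both genotypes library 3 was the lowest, and the log2 difference of 0.12 (95% interval -0.21 to 0.45, edgeR FDR = 0.555) did not pass the test. With the replicate number as a block it was 0.13 and passed (edgeR FDR = 0.0445). Without PP2Ac WT replicate 3 it was -0.02. *Fosb*, the least abundant FOS gene, had 168 to 194 counts in PP2Ac KO and 114 to 248 in PP2Ac WT, and levels of 4.57, 5.09 and 4.63 CPM against 4.99, 5.52 and 2.72 CPM. A low PP2Ac WT library 3 made the spread wide, and the log2 difference was 0.10 (95% interval -0.40 to 0.61, edgeR FDR = 0.749), or -0.14 without that library. Of summed FOS RNA per kilobase, *Fos* took 83.3% ± 1.78 in PP2Ac WT and 88.9% ± 1.08 in PP2Ac KO (SD, n = 3), and *Fosl2* most of the rest. The count ratio of *Fos* to *Fosl2* was 1.83, 1.91 and 2.27 in PP2Ac KO and 1.13, 1.18 and 1.44 in PP2Ac WT, without overlap.

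The EGR genes differed in opposite directions, though only *Egr1* passed the test. *Egr1*, an activator that responds to growth factors and stress, was at 14.0, 12.2 and 15.2 CPM in PP2Ac KO against 8.74, 8.39 and 8.99 in PP2Ac WT. The PP2Ac WT libraries lay close together and under all PP2Ac KO libraries, and the level rose 1.59-fold (log2 0.67, SE 0.10, edgeR FDR = 7.05e-04). *Egr2*, known in macrophages from alternative activation, was at 2.00, 1.97 and 1.89 CPM in PP2Ac KO against 2.17, 2.83 and 3.67 in PP2Ac WT, from 65 to 85 and 108 to 154 counts. The groups did not overlap, but the PP2Ac WT libraries were spread widely, and the log2 difference of -0.56 (SE 0.20) missed the threshold at an edgeR FDR = 0.0519. With the replicate number as a block it passed (-0.54, edgeR FDR = 0.0208), and without PP2Ac WT replicate 1 it was -0.73 and passed too (edgeR FDR = 0.00815), whereas without PP2Ac WT replicate 3 it was -0.35. The fibroblast markers, lower in PP2Ac KO as given above, moved in the direction of *Egr2*, and their part in it was not tested. The *Egr1* to *Egr2* count ratio was 6.99, 6.20 and 8.04 in PP2Ac KO against 4.02, 2.97 and 2.45 in PP2Ac WT, a difference of 1.19 in mean log2 ratio.

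*Atf3* was abundant in both genotypes, with 310, 304 and 326 CPM in PP2Ac KO against 251, 236 and 267 in PP2Ac WT. Its groups were apart by more than the range within either, and its increase was the smallest of the 6, 1.25-fold (log2 0.32, SE 0.07, edgeR FDR = 0.00656). *Ier3*, whose product limits apoptosis, was at 40.4, 35.9 and 33.0 CPM in PP2Ac KO against 20.4, 21.5 and 19.0 in PP2Ac WT. The genotypes were well apart, and the level rose 1.79-fold (log2 0.84, SE 0.09, edgeR FDR = 1.60e-04).

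**Figure D3:**
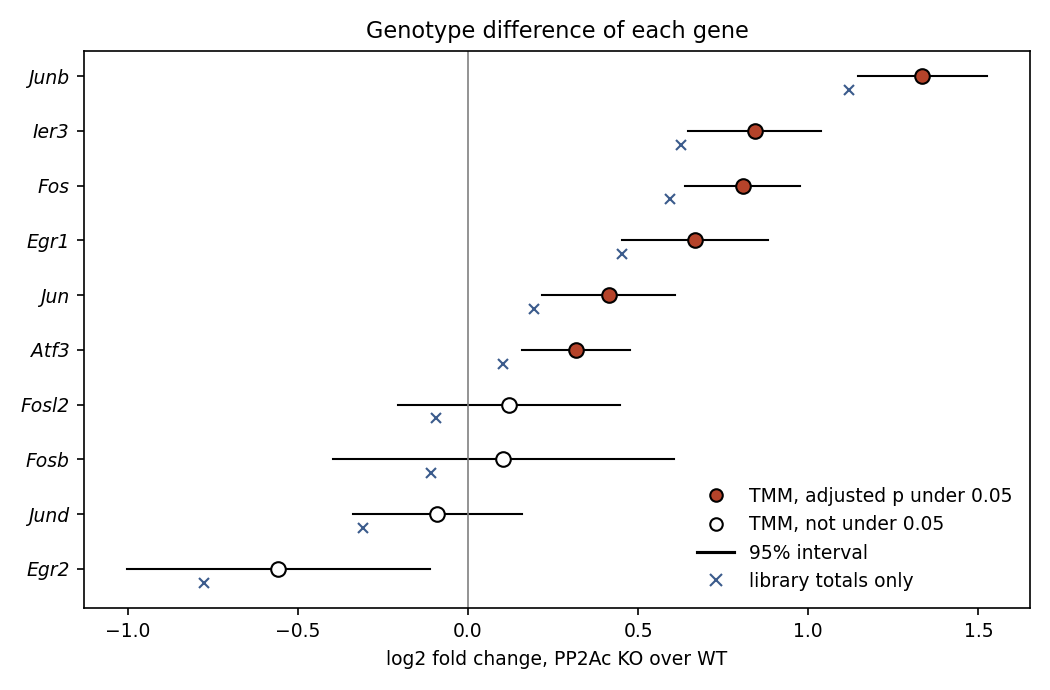
Log2 fold change (x axis, PP2Ac KO over PP2Ac WT) of each gene with its 95% interval, filled where the adjusted p is under 0.05, and as crosses the values with library totals as the scale. *Junb* is highest at 1.34 and *Egr2* lowest at -0.56, and the crosses of *Jun* and *Atf3* fall to 0.20 and 0.10.

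The smaller increases depended on the scale. TMM factors were 0.910 to 0.937 in PP2Ac KO and 1.05 to 1.10 in PP2Ac WT, and with library totals alone, an alternative chosen after the data were seen, the median log2 difference over all genes moved from -0.02 to -0.24. On that scale *Jun* (0.20, edgeR FDR = 0.0973) and *Atf3* (0.10, FDR = 0.256) no longer passed, *Jund* (-0.31, FDR = 0.0439) and *Egr2* (-0.78, FDR = 0.00982) passed as lower, and *Junb* (1.12), *Ier3* (0.63), *Fos* (0.59) and *Egr1* (0.45) kept their calls.

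Per kilobase of exon, the order of levels in PP2Ac WT was *Fos* (137 ± 10.4 RPKM), *Atf3* (117 ± 7.19), *Junb* (92.9 ± 6.64), *Jund* (61.1 ± 9.74), *Jun* (35.8 ± 3.60), *Fosl2* (26.9 ± 5.20), *Ier3* (17.9 ± 1.08), *Egr1* (1.94 ± 0.0672), *Egr2* (0.851 ± 0.221) and *Fosb* (0.706 ± 0.238), as mean ± SD of 3 libraries. The library ranges of *Egr2* and *Fosb* overlapped, and those of all other neighbours did not. In PP2Ac KO, *Junb* (234 ± 18.2 RPKM) passed *Atf3* (145 ± 5.18) and its range overlapped that of *Fos* (239 ± 7.02). *Ier3* (32.2 ± 3.29) overlapped *Fosl2* (29.3 ± 3.88), and *Egr2* (0.575 ± 0.0166) came after *Fosb* (0.763 ± 0.0455). With the length of the longest coding transcript in place of all exons, *Junb* was at 298 and *Fos* at 267 RPKM in PP2Ac KO, and *Fosl2* came before *Jun* in PP2Ac WT (39.9 and 35.8 RPKM). *Fosb* then also came before *Egr2* in PP2Ac WT (1.17 and 0.9754 RPKM), and *Fosl2* before *Ier3* in PP2Ac KO (43.3 and 32.2 RPKM).

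Genes that work with these factors were read from lists. Among 12 other bZIP genes that pair with or compete with AP-1, 4 were higher and 1 was lower, beside 18.1% and 19.0% of all genes. Their median log2 difference was 0.06, or -0.01 with upper-quartile scaling. There 4 and 5 were called, beside 2095 and 3356 of all 13680 genes. With library totals alone 3 and 5 were called, beside 1503 and 6125. RLE scaling and DESeq2 each called 4 and 0. *Batf2*, an interferon-induced partner of JUN proteins, rose from 21.7 ± 2.42 to 57.4 ± 5.66 CPM (log2 1.40, edgeR FDR = 5.4e-05). *Maff*, a small MAF protein without an activation domain, rose from 3.99 ± 0.285 to 7.18 ± 1.73 CPM (0.85, FDR = 0.0034). *Fosl1*, which encodes FRA-1, had 12 to 25 counts in PP2Ac KO and 23 to 43 in PP2Ac WT and was not called (log2 -0.89, edgeR FDR = 0.0591), but with the replicate block it was called lower (-0.87, FDR = 0.0253). With the replicate block the counts on this list were 5 higher and 5 lower, beside 3343 and 3615 of all genes. Of the other EGR genes and the NAB corepressors that bind EGR proteins, 3 of 4 were tested. In the main fit 1 was higher and 0 lower, beside 18.1% and 19.0% of all genes. The 1 called was *Nab1*, from 132 ± 17.2 to 202 ± 8.81 CPM (log2 0.61, edgeR FDR = 0.00103). With library totals alone 1 was higher and 1 lower, beside 1503 and 6125 of all genes.

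Other immediate-early genes showed a share of higher genes close to that of the 10, but both sets were chosen with earlier results of these data known. Of 26 on the list, 16 (61.5%) were higher and 0 lower at an edgeR FDR under 0.05, beside 18.1% and 19.0% of all genes. The 0 lower held at an unadjusted p under 0.05 and with DESeq2 and limma-voom. The median log2 difference of the 26 was 0.40. With library totals as the scale the counts were 13 and 1, beside 1503 and 6125 of all 13680 genes. With the replicate block they were 20 and 0, beside 3343 and 3615. *Nr4a3*, an orphan nuclear receptor gene, rose from 8.01 ± 2.61 to 17.4 ± 3.84 CPM (log2 1.11, edgeR FDR = 0.00495). *Gadd45b*, a stress sensor gene, rose from 28.0 ± 1.73 to 60.4 ± 5.29 CPM (1.11, FDR = 5.43e-05), and *Dusp1*, whose product dephosphorylates MAP kinases, from 147 ± 14.3 to 303 ± 40.0 CPM (1.05, FDR = 1.69e-04). *Myc*, at 2.64 CPM in PP2Ac WT against 2.61 in PP2Ac KO, was not called.

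Among 12 textbook AP-1 target genes, 6 were higher and 1 was lower, beside 18.1% and 19.0% of all genes, and their median log2 difference was 0.54. With the replicate block 8 and 3 were called, beside 3343 and 3615 of all 13680 genes. With library totals alone 6 and 4 were called, beside 1503 and 6125. DESeq2 and upper-quartile scaling each called 6 and 2. The 12 genes answer to other factors too, so the counts do not measure AP-1 activity. *Mmp13*, which encodes a collagenase, was at 167, 132 and 109 CPM in PP2Ac KO against 60.1, 37.1 and 23.6 in PP2Ac WT (log2 1.75, edgeR FDR = 0.0015). *Tnf* rose from 75.2 ± 9.70 to 229 ± 26.4 CPM (1.61, FDR = 5.4e-05). *Timp1*, an inhibitor of such proteases, fell from 10.6 ± 2.17 to 4.13 ± 0.818 CPM (-1.36, FDR = 5.4e-04), in the direction of the fibroblast markers, whose part in it was not tested.

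**Figure D4:**
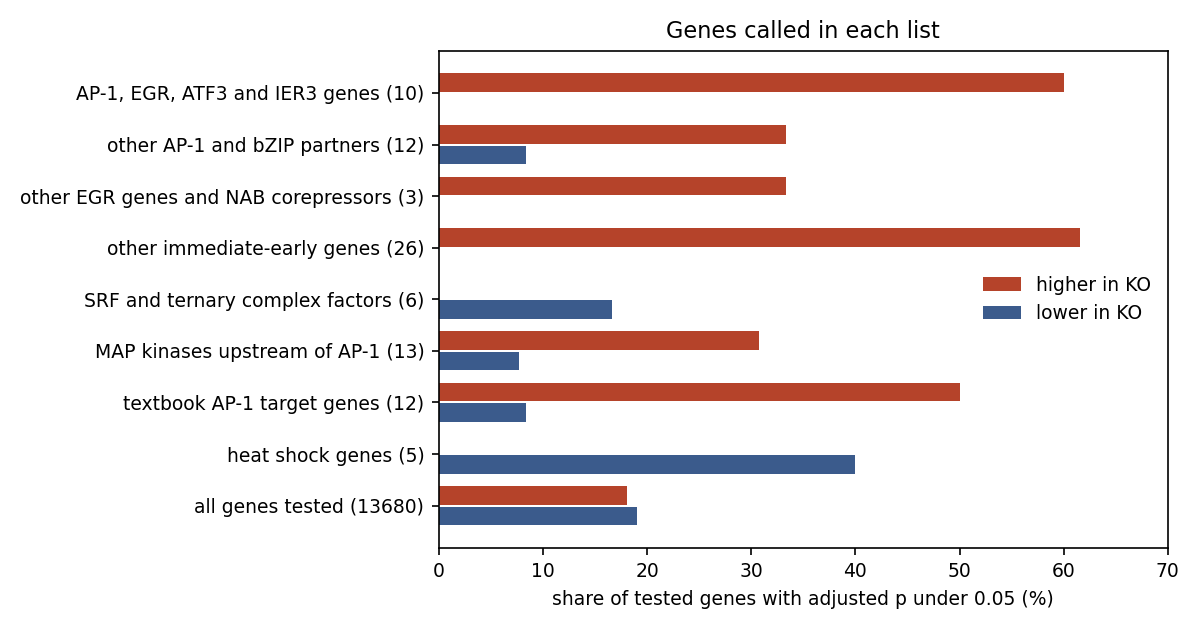
Share (%) of the tested genes of each list (number tested in parentheses) that were higher (red) or lower (blue) in PP2Ac KO at an adjusted p under 0.05. The 10 genes (60% higher, none lower) and the 26 other immediate-early genes (61.5%) stand beside 18.1% higher and 19.0% lower over all genes. The lists were chosen with earlier results of these data known.

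For *Jun*, *Fos*, *Egr1* and *Atf3*, the genes with the most similar pattern over the 6 libraries were found by the root mean square difference of centred log2 CPM. Nearest to *Fos* were *Gsdmd* (0.0254), *Svbp* (0.0299) and *Tmem51* (0.0305), and to *Atf3* were *Fyb* (0.0267), *Ube2d1* (0.0294) and *Actb* (0.0302). *Jun* was nearest to *Gm23935* (0.0406), *Cebpd* (0.0465) and *Ssc4d* (0.0532), and *Egr1*, with fewer counts, to *Tfec* (0.0574), *Gm13012* (0.0658) and *Myo7a* (0.0764). The 10 members were left out of this search, and the measure carries no test.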

How the data were processed

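RNA-Seq was analysed for 3 PP2Ac KO and 3 PP2Ac WT libraries of BMDM, grouped by their titles. The authors deposited raw counts of reads per gene symbol, without normalization, in a table named for mm10. The submitters' processing notes name fastp 0.20.0, kallisto 0.46.1, STAR 2.7.1a, HTSeq 0.11.2, edgeR 3.34.0 and limma 3.48.3; the annotation and strand setting are not given in the sources used here. Poly(A) libraries were made with a directional kit.

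The deposited counts went into edgeR 4.0.16 (R 4.3.3): filterByExpr (minimum count 10, minimum total 15), TMM scaling, glmQLFit and glmQLFTest for genotype alone, and Benjamini-Hochberg adjustment over 13680 genes. CPM used TMM factors, and RPKM the exon length in GENCODE M21. Alternatives were RLE and upper-quartile scaling, library totals alone, other filters, the replicate block, each library left out, DESeq2 1.42.0 and limma-voom (limma 3.58.1). Libraries with the same replicate number in their titles deviated together from their group means (correlations across genes 0.266, 0.133 and 0.322), although no source says what the numbers share, so values with the number as a block are given beside the unblocked main fit where they changed the call of a member or named gene. Replicate libraries differed by 9.54 to 46.0 times counting variance (chi-square per degree of freedom), so none is a copy. Steps were tested on simulated data.

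The members and lists were chosen with earlier results of these data known. Named were all 10 members, *Ppp2ca*, the genes called among the 3 of each list with the largest change, and the nearest genes by pattern. *Fosl1*, *Myc*, *Mapk3*, overlapping genes and some markers were named after their values were seen.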

Additional observations from a re-analysis of the deposited data

How the results depend on the processing

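The calls of *Junb*, *Ier3*, *Fos* and *Egr1* kept their direction and side of the threshold under all 14 alternatives, with log2 fold changes of 1.12 to 1.39, 0.63 to 0.91, 0.59 to 0.86 and 0.45 to 0.75, and those of *Jun* and *Atf3* under 13 of 14, the exception being library totals alone. Members called higher numbered 4 to 7 over the alternatives and 6 whichever library was left out. The 0 members called lower became 1 (*Egr2*) with upper-quartile scaling, without a filter on low counts and with the replicate block, 0 to 1 with a library left out, and 2 with library totals alone. Over all genes, 2470 were higher and 2604 lower, 1974 to 2721 and 1873 to 2720 with a library left out, 2095 and 3356 with upper-quartile scaling, 3343 and 3615 with the replicate block (beside 7 and 1 members), and with library totals alone 1503 and 6125, so that the split there follows the shift of all genes. Small differences that were not called changed sign: *Fosb* to -0.11 and *Fosl2* to -0.0945 with library totals alone, and with a library left out *Fosb* ranged from -0.142 to 0.293 and *Fosl2* from -0.0247 to 0.244 (lowest without PP2Ac WT replicate 3), and *Jund* from -0.195 to 0.0374 (highest without PP2Ac WT replicate 2). The replicate block changed the calls of *Fosl2* and *Egr2* and of no other member. Groups of 3 libraries are too small for a test of outlying values. The depth, with 65 counts or more of each member in every library, did not limit detection, but counts of *Egr2* and *Fosb* are the lowest.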

Other observations

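Transcripts of the kinases and cofactors that act before these genes were counted in the same libraries. Of 13 MAP kinase pathway genes, 4 rose and 1 fell in PP2Ac KO at an edgeR FDR (adjusted p) under 0.05, beside 18.1% and 19.0% of all genes. With library totals alone, 3 rose and 5 fell, beside 1503 and 6125 of all 13680 genes. With the replicate block 5 rose and 2 fell, beside 3343 and 3615. The 1 that fell in the main fit was *Mapk3* (log2 -0.26, edgeR FDR = 0.0185). *Map2k1*, which encodes MEK1, rose from 212 ± 12.4 to 317 ± 7.83 CPM (SD, n = 3; log2 0.58, edgeR FDR = 2.81e-04). *Mapk9*, the gene of the kinase JNK2, rose from 63.5 ± 8.21 to 94.1 ± 4.37 CPM (0.57, adjusted p = 0.00133 from edgeR), and *Mapkapk2*, a kinase gene that stabilizes AU-rich RNAs downstream of p38, from 398 ± 9.33 to 574 ± 39.6 CPM (0.53, adjusted p = 5.42e-04 from edgeR).

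Of 6 genes of serum response factor and its cofactors, 0 were higher and 1 lower in edgeR, beside 18.1% and 19.0% of all genes. The 0 higher held at an unadjusted p under 0.05 and with DESeq2 and limma-voom. With library totals alone 5 were lower, as were 6125 of all 13680 genes. The 1 lower in the main fit was *Mrtfb*, an actin-regulated coactivator, at 58.5 ± 2.99 CPM in PP2Ac WT and 33.4 ± 2.60 CPM in PP2Ac KO (log2 -0.81, edgeR FDR = 9.99e-05). *Srf* was at 43.6 and 41.8 CPM and was not called. Of 5 heat shock genes, which answer to handling stress, 0 were higher in edgeR and 2 lower, beside 18.1% and 19.0% of all genes. Here too the 0 higher held at an unadjusted p under 0.05 and with DESeq2 and limma-voom. *Hsph1* fell from 32.5 ± 1.74 to 24.3 ± 0.624 CPM (-0.42, adjusted p = 0.00105 from edgeR). *Hspb1*, with 6 to 14 counts in PP2Ac KO and 31 to 68 in PP2Ac WT, had a log2 fold change of -2.22 (adjusted p = 0.00232 from edgeR), in the direction of the fibroblast markers, whose part in it was not tested. *Hspa1a* and *Hspa1b*, the most inducible of them, were at 2.98 and 2.66 CPM in PP2Ac KO and 2.68 and 2.58 CPM in PP2Ac WT and were not called.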
